A study of Mus musculus with 52 samples.

Results

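Messenger RNA of 9 genes that carry cargo to the ciliary membrane or act there was followed across 13 clone cultures of mouse IMCD3 cells, an immortalised kidney line derived from the inner medullary collecting duct that grows a primary cilium. The genes were chosen by name, and all 9 were found among the 24421 gene symbols of the count files. They are Arl3, Unc119b, Pde6d, Inpp5e, Rpgr, Tulp3, Gpr161, Adcy3 and Adcy6.

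The ciliary membrane is continuous with the plasma membrane but holds its own lipids and receptors. Proteins with a lipid anchor travel through the cytosol in soluble carriers: UNC119B shields myristoyl groups and PDE6D shields prenyl groups. The small GTPase ARL3 opens these carriers inside the cilium when it holds GTP. Receptors without such anchors enter on TULP3, which binds phosphoinositides, and the phosphatase INPP5E keeps the lipid that TULP3 binds out of the ciliary membrane. GPR161, a receptor that raises cAMP, and the adenylyl cyclases ADCY3 and ADCY6 make the cilium a cAMP compartment that restrains Hedgehog signalling.

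All clones came from Cilia-APEX-IMCD3 cells, which carry a transgenic peroxidase targeted to the cilium, and all are labelled CRISPR. Mutant clones were homozygous for a missense change in Wdr34 or Wdr60, the intermediate chains of the dynein-2 motor, made with a cytosine base editor. By the study's account, editing also left an unintended heterozygous missense change in a Wdr34 clone and a heterozygous synonymous change in Wdr60. Control clones received the editor and a vector without a target oligo. Each clone grew from 1 sorted cell. Ciliated cells comprised the mutant clones Wdr34 clone 1, Wdr34 clone 3 and Wdr60 (n = 3) beside the controls A4, D8, G7 and H12 (n = 4), whereas non-ciliated cells comprised the mutant clones Wdr34 and Wdr60 (n = 2) beside the controls AB, Co1, Co2 and Co3 (n = 4). A clone name within a state is counted below as 1 clone, 13 in all. By the study's text fewer clones were made than there are names, and 1 Wdr34 mutant was not measured in non-ciliated cells, so that clones of 1 state were measured again in the other, in part under another name. The labels do not match the control names of the states or give the Wdr34 alleles, no match was made from the values, and the tests treat the 13 as separate. Ciliated cells were serum-starved according to the study's methods, while the labels give the same serum content for all libraries. By the study's account, the Wdr34 mutant absent from non-ciliated cells was obtained once those cells had been sequenced. The sequencing run can therefore differ with the state as well, and the labels do not give it. State, clone names and serum, and possibly the sequencing run, change together and cannot be told apart.

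Each clone was sequenced as 4 technical replicate libraries, which makes 52 libraries with 14816218 to 28084979 counts, so that 1 CPM (counts-per-million) stands for 14.8 to 28.1 counts. Libraries of 1 clone measure technical spread, and in such bulk RNA fewer cells that express a gene and less RNA per cell cannot be told apart. The defining collecting duct marker Aqp2 stayed at or below 0.0157 CPM in every clone, and of 10 collecting duct markers 0 exceeded 1 CPM in every clone and 4 in no clone. The highest of the other 6 were Hsd11b2, at up to 8.06 CPM, and Scnn1a, at up to 5.496. Of 4 proximal tubule markers, Lrp2 reached 455 CPM and Cubn 23.9, while Slc34a1 was at 0 and Slc5a2 at or below 0.0629. The 4 summed to 17.0 to 459 CPM in ciliated controls and 16.2 to 66.8 in ciliated mutants. In non-ciliated cells the sums were 25.7 to 288 CPM in controls and 22.4 to 32.0 in mutants. Of 2 thick ascending limb markers, Umod reached 9.80 CPM and Slc12a1 0.231. The 6 epithelial markers summed to 146 CPM in the ciliated control G7 and 198 CPM in the non-ciliated control Co2. They summed to 953 CPM in the ciliated mutant Wdr34 clone 3 and to 2694 to 4319 CPM in the other clones. The 3 fibroblast markers summed to 2.31 to 30.3 CPM in ciliated mutants and 1.34 to 2.42 CPM in ciliated controls. The top of that range was nearly all Dcn, at 29.1 CPM in 1 ciliated mutant clone. Col1a1 averaged 1.89 CPM in ciliated mutants and 1.47 in ciliated controls, and Pdgfrb 0.0615 and 0.0361. In non-ciliated clones they summed to 2.67 to 5.61 CPM. In 8 libraries the median gene lay more than 0.2 log2 units from the other libraries of its clone (0.229 to 0.379, against 0.0618 to 0.165 in the rest). They were all 4 libraries of the ciliated Wdr60 clone and 1 library each of AB, the non-ciliated Wdr60 clone, G7 and A4. Wdr34 and Wdr60 mRNA are no check of a missense edit; Wdr34 ranged from 21.6 to 49.7 CPM and Wdr60 from 20.2 to 30.6 CPM over the 13 clones.

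Per kilobase of exon, the 9 genes fell into a wide order. Unc119b was the most abundant, with 34.4 to 54.5 CPM per kb over the 13 clones and a median of 41.9. Adcy6 (17.6 to 42.6, median 25.6) and Arl3 (18.9 to 32.8, median 23.9) came next and overlapped each other, and only Adcy6 reached into the range of Unc119b. Pde6d had a median of 15.1 CPM per kb, Inpp5e of 9.05 and Tulp3 of 8.75. Tulp3 spread from 4.41 to 18.1 CPM per kb and so overlapped every neighbour from Pde6d to Gpr161. Gpr161 (median 3.38) and Rpgr (median 1.52) were lower, and Adcy3 was the lowest, at 0.212 to 0.682 CPM per kb. The cyclase that gives neuronal cilia their usual marker was thus present at a median of 0.345 CPM per kb, and Adcy6, the cyclase of kidney epithelium, at a median of 25.6.

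**Figure D1:**
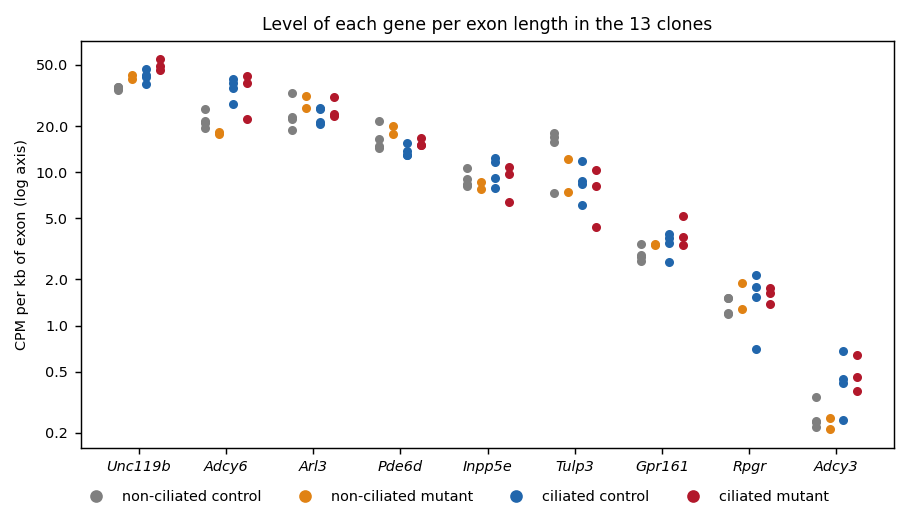
Level of each gene in CPM per kb of exon on a log axis, with 1 point per clone and the colour giving state and genotype. The points of Unc119b lie at 34.4 to 54.5 and those of Adcy3 at 0.212 to 0.682.

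The carriers and the GTPase that opens them come first. Unc119b (chr5:115122566-115134975, minus strand, GRCm38.p6) lay within a narrow band in non-ciliated controls, with 165 CPM in AB, 158 in Co1, 165 in Co2 and 162 in Co3. The non-ciliated mutant clones measured 187 CPM (Wdr34) and 199 CPM (Wdr60), above every control clone of that state. Ciliated controls measured 193 CPM in D8, 217 in H12, 198 in A4 and 172 in G7. Ciliated mutants reached 225 CPM in Wdr34 clone 1, 214 in Wdr34 clone 3 and 251 in Wdr60, so that only Wdr34 clone 3 fell below the highest control, H12.

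Arl3 (chr19:46531109-46573182, minus strand), the GTPase that releases cargo, ranged from 47.0 CPM in Co1 to 81.6 in Co2 over the 13 clones, and all 4 groups overlapped. Its libraries disagreed within clones: the SD over 4 libraries was 29.6 CPM at a mean of 59.6 in the ciliated Wdr60 clone and 26.2 CPM at a mean of 52.8 in G7. Pde6d (chr1:86543012-86582785, minus strand) was higher in the non-ciliated controls AB (46.8 CPM) and Co2 (35.6) than in Co1 (32.0) and Co3 (31.3), and lay at 28.2 to 33.8 CPM in ciliated controls. The non-ciliated mutants measured 38.4 (Wdr34) and 43.7 CPM (Wdr60), above all controls of their state but AB, and the ciliated mutants 32.7 to 36.6.

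Inpp5e (chr2:26396249-26409244, minus strand) was lowest in the ciliated mutant Wdr34 clone 3, at 27.6 CPM, and highest in the ciliated control G7, at 53.3 CPM. Within non-ciliated cells it stayed between 33.3 and 45.6 CPM. Its 3′ end shares 874 exon bases with Pmpca on the other strand, and the strand setting of the counting is not stated, so reads of that stretch cannot be assigned to either gene with certainty.

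Tulp3 (chr6:128321140-128355873, minus strand), the adaptor that brings GPR161 into the cilium, differed in steps between clones. Among non-ciliated cells Co1 measured 159 CPM, Co2 170 and Co3 148, but AB 68.8. The Wdr34 mutant lay between at 114 CPM, and the Wdr60 mutant at 69.8 matched AB rather than the other controls. Among ciliated cells G7 measured 110 CPM, D8 81.8, A4 78.7 and H12 57.5, and the mutants measured 96.8 (Wdr34 clone 3), 75.7 (Wdr34 clone 1) and 41.2 (Wdr60). Mutants and controls overlapped in both states. The SD over the libraries of a clone was 2.53 to 11.7 CPM, less than the steps between AB, the non-ciliated Wdr34 mutant and Co3.

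Gpr161 (chr1:165281184-165326747, plus strand) was highest in the ciliated Wdr60 clone, at 36.1 CPM, with the other 12 clones at 18.2 to 27.3. The lowest were G7 (18.2) and Co2 (18.3), the pair of controls low in epithelial markers.

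Adcy6 (chr15:98589978-98610287, minus strand) separated the states in control cells. Non-ciliated controls measured 131 CPM in AB, 146 in Co1, 174 in Co2 and 143 in Co3. Ciliated controls measured 187 CPM in D8, 275 in H12, 241 in A4 and 259 in G7, and so lay above all 4. The non-ciliated mutants, at 125 (Wdr34) and 120 CPM (Wdr60), lay below every control of their state. Ciliated mutants reached 289 CPM in Wdr34 clone 1 and 260 in Wdr60, but only 150 in Wdr34 clone 3, which was below every ciliated control.

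Adcy3 (chr12:4133116-4213525, plus strand) was near the limit of these depths, with 11 to 98 counts in a library. Non-ciliated clones measured 1.32 to 2.15 CPM. Ciliated controls measured 2.65 CPM in D8, 4.26 in H12, 1.52 in A4 and 2.78 in G7, and ciliated mutants 2.35 to 3.996. A4 alone among ciliated clones lay within the non-ciliated range. Adcy3 shares 1380 exon bases with Cenpo, a centromere gene on the other strand with a mean of 497 counts, so some of its few counts may belong to Cenpo; this was not tested.

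**Figure D2:**
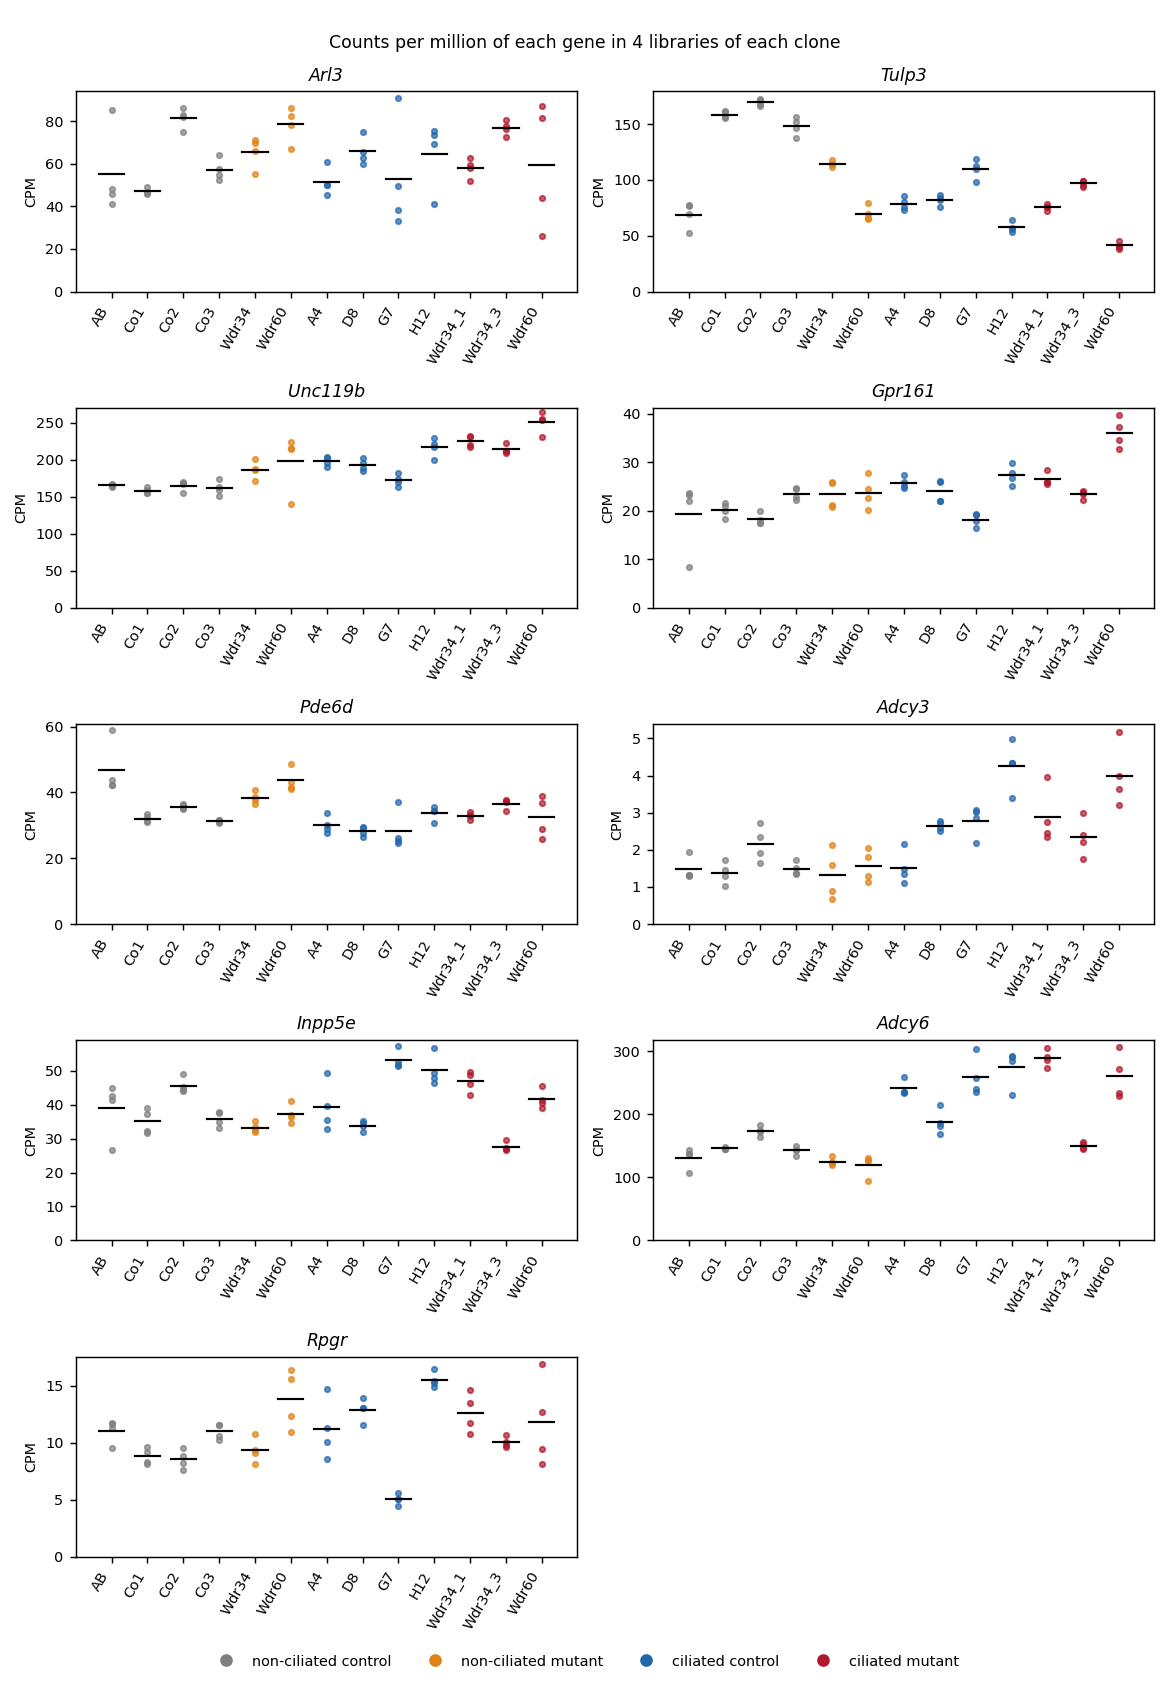
CPM of each gene in the 4 libraries (points) of each clone, with the clone mean as a bar, coloured by state and genotype; each panel starts at 0. Tulp3 shows the steps between 41.2 and 170 CPM, Rpgr the low values of G7 at 5.07 CPM, and Adcy6 the ciliated clones from 150 to 289 CPM.

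Rpgr (chrX:10158216-10216795, minus strand), a prenylated protein of the transition zone that PDE6D carries and that is mutated in retinitis pigmentosa, was lowest in 1 ciliated control. G7 measured 5.07 CPM, with its 4 libraries at 5.09, 5.63, 5.08 and 4.49. The other ciliated controls measured 12.9 (D8), 15.5 (H12) and 11.2 CPM (A4), and the 3 ciliated mutants 10.1 to 12.7. Non-ciliated clones lay between 8.58 CPM in Co2 and 13.8 in the Wdr60 mutant. No library of another clone was as low as those of G7; the lowest elsewhere was 7.64 CPM, in Co2.

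The gene most like Rpgr over the 13 clones, after subtraction of each state's mean log2 CPM, was Nme5 (Pearson r = 0.98), followed by Iqcg (0.97) and Kif27 (0.96), among 12543 genes compared. Each of these is known for a part in motile cilia. These r describe 13 clone cultures, not independent clones, that share scaling, and carry no test. In G7 Nme5 measured 1.49 CPM, Iqcg 2.77 and Kif27 0.298. In H12 they measured 11.5, 13.8 and 13.7 CPM. Rpgr moved in the same order but less, from 5.07 to 15.5 CPM. In Co2 Kif27 was at 0.585 CPM, and both it and Rpgr had their second lowest value there.

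Promoter windows of 300 bases (250 before to 50 after a start) from RefSeq on GRCm38.p6 are shown for Rpgr and, from the 3 genes most like it, for Iqcg and Kif27. Capitals mark the half-site GTTNCC of the X-box on either strand, the element that RFX factors of ciliary genes bind. The windows are chrX:10216746-10217045, chr16:33056137-33056436 and chr13:58354898-58355197, all on the minus strand.
Rpgr: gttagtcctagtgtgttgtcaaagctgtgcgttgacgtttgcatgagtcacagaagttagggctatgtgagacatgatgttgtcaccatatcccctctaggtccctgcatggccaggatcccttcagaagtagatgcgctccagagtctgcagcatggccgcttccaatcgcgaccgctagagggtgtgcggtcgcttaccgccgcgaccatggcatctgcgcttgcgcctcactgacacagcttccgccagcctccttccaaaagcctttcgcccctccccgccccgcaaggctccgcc
Iqcg: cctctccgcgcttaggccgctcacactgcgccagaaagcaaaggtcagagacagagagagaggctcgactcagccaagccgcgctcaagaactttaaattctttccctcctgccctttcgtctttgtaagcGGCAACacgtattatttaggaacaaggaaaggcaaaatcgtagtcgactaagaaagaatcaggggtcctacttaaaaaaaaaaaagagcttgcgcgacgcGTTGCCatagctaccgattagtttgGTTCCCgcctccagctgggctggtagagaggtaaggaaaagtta
Kif27: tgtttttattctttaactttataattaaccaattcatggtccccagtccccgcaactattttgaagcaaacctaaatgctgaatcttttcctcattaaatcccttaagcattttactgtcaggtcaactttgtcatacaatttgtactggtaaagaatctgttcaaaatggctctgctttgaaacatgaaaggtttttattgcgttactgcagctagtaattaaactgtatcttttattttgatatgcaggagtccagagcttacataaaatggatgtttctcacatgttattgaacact
The Iqcg window holds 3 such half-sites and those of Rpgr and Kif27 hold 0. Of 32851 windows of the same length, 45.3% hold the half-site on either strand, and 0.451% hold the whole GTTNCCNNGGNAAC. For 8 of the 9 genes 12 windows were found; 6 windows of 5 genes hold the half-site and 0 the whole X-box. CCAAT, searched on both strands, was in 7 of the 12 windows, from 6 genes, against 37.4% of all windows. The windows of Inpp5e overlap and share the same match, so the 12 are not independent. The Rpgr window shown here holds CCAAT, and the other Rpgr window holds 0. The FOXJ1 heptamer TGTTTAC was in 0 of the 12, against 3.65%. A match describes letters in these windows, and its absence says nothing about a factor.

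**Figure D3:**
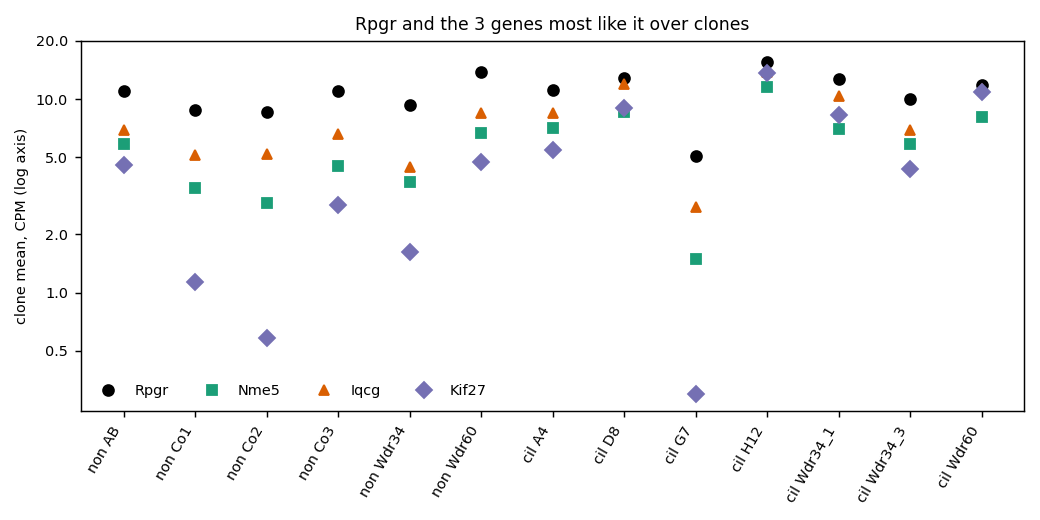
Clone mean CPM of Rpgr and of Nme5, Iqcg and Kif27 on a log axis for the 13 clones. All are lowest in G7 (Rpgr 5.07, Iqcg 2.77, Nme5 1.49 and Kif27 0.298 CPM) and highest in H12 (15.5, 13.8, 11.5 and 13.7 CPM).

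The first comparison asked what the dynein-2 mutations did to these transcripts in ciliated cells. All genes entered edgeR's quasi-likelihood test on raw counts, in which each library was a sample. A call needed both an adjusted p (Benjamini-Hochberg) under 0.05 and a log2 fold change of 1 or more in either direction. Because libraries of 1 clone share that clone, these p-values are too small for a difference between genotypes, and an exact 2-sided permutation p over clone means stands beside them. By this rule 0 of the 9 genes were called higher, against 0.418% of 11950 tested genes, and 0 were called lower, against 0.226%. DESeq2 also called 0, and 3 of the 9 had an unadjusted p under 0.05 with either tool, against 19.2% of all genes with edgeR. By the adjusted p alone 1 gene was higher (background 1.58%) and 0 were lower (1.59%). That gene was Unc119b, with 230 ± 19.0 CPM in mutants (SD, n = 3 clones) and 195 ± 18.6 in controls (n = 4 clones), a log2 fold change of 0.23 (SE 0.05, edgeR adjusted p = 0.0194). Over clones its exact permutation p was 0.0857, where 0.0286 is the smallest possible. Clone means overlapped for all 9 genes; elsewhere mutants lay above all controls in 1.17% of genes and below in 0.837%.

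The other log2 fold changes in ciliated cells ran from −0.21 for Tulp3 (SE 0.16) to 0.25 for Gpr161 (SE 0.10, edgeR adjusted p = 0.163). The median over the 9 genes was 0.12, against −0.01 over all tested genes. Without the ciliated Wdr60 clone, which had the highest Unc119b and Gpr161 and the lowest Tulp3, the value of Unc119b was 0.15 (edgeR adjusted p = 0.113) that of Tulp3 was 0.06 and that of Gpr161 0.0466. Gpr161 had an edgeR adjusted p of 0.0489 without Wdr34 clone 3 and 0.0476 without H12, and Pde6d of 0.0434 without H12. The threshold was also missed for Unc119b without D8 (0.0581), without A4 (0.0521), without any 1 replicate number (0.11 to 0.161) and without the libraries far from the rest of their clone (0.129), and with the libraries of a clone summed its edgeR adjusted p was 1.

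In non-ciliated cells, which asks the same of cells without starvation, again 0 of 9 genes were called higher (background 0.491% of 12012 tested genes) and 0 lower (2.57%). DESeq2 called 0 as well, and 3 of the 9 had an unadjusted p under 0.05 with either tool, against 30.3% of all genes with edgeR. By the adjusted p alone Unc119b was higher (background 7.12%) and Adcy6 lower (7.89%). Unc119b measured 193 ± 8.46 CPM (SD, n = 2 clones) against 162 ± 3.25 (n = 4 clones), a log2 fold change of 0.25 (SE 0.06, edgeR adjusted p = 0.00777). Its 2 mutant clones lay above all controls, as in 6.93% of genes, with an exact permutation p of 0.0667, the smallest that 2 against 4 clones allow. Adcy6 measured 122 ± 3.73 CPM (n = 2 clones) against 148 ± 18.1 (n = 4 clones), a log2 fold change of −0.28 (SE 0.07, edgeR adjusted p = 0.0140). Its mutant clones lay below all controls, as in 5.97% of genes, with an exact permutation p of 0.2.

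Tulp3 had the largest difference in non-ciliated cells, at −0.56 on the log2 scale (SE 0.20) and an adjusted p of 0.0580 with edgeR and 0.0264 with DESeq2. It was −0.25 without the Wdr60 mutant, −0.96 without the Wdr34 mutant and −0.79 without AB (edgeR adjusted p = 0.549, 0.0225 and 3.2e-05), and −0.597 without the libraries far from the rest of their clone (0.0204). The median over the 9 genes was 0.17, against 0.002 over all genes. Unc119b missed the threshold without replicate number 2, 3 or 4 (edgeR adjusted p = 0.0854 to 0.119), and Adcy6 without either mutant clone or any of these numbers (0.0584 to 0.0967). Other genes passed only with a clone left out, namely Pde6d without AB (0.31, edgeR adjusted p = 0.000296), Arl3 without Co2 (0.43, 0.0157) and Rpgr without the Wdr34 mutant (0.49, 0.0174). Pde6d also passed without the libraries far from their clone (0.23, 0.029). With the libraries of a clone summed, the edgeR adjusted p was 0.976 for Unc119b, Adcy6 and Tulp3.

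The mutant effect was then compared between the states, in 1 fit over all 52 libraries. The difference is the log2 fold change in ciliated cells minus that in non-ciliated cells, so its sign does not say in which state the change was larger. Of the 9 genes 0 were called with a positive difference (background 1.12% of 12544 genes, and 1.5% by the adjusted p alone), and 0 with a negative one (0.0638% and 0.391%). The same count came from DESeq2. With either tool 0 had an unadjusted p under 0.05, against 14.4% of all genes with edgeR and 15.1% with DESeq2. Differences of the log2 fold changes ran from −0.19 for Rpgr (SE 0.24) to 0.36 for Tulp3 (SE 0.26, edgeR adjusted p = 0.547), whose mutant values were −0.21 in ciliated and −0.56 in non-ciliated cells. For Unc119b the difference was −0.01 (SE 0.08): its fold change was of like size in both states, though a missed threshold does not show the effects to be equal. Without Wdr34 clone 3 the difference of Adcy6 was 0.465 (edgeR adjusted p = 0.035).

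**Figure D4:**
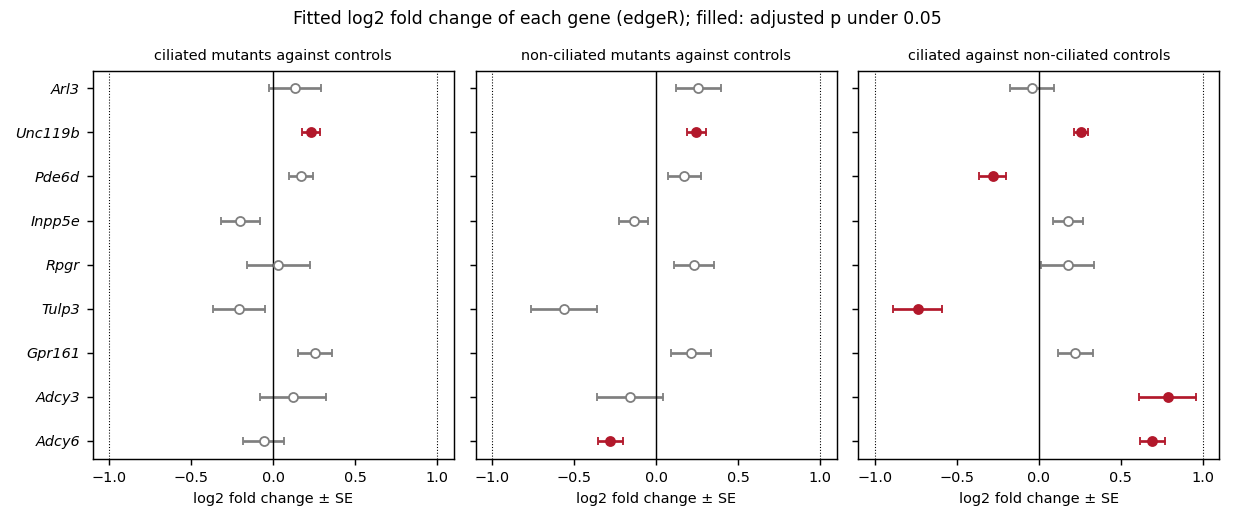
Fitted log2 fold change with its SE of each gene in 3 comparisons, with dotted lines at a log2 fold change of 1 in either direction and filled points for an edgeR adjusted p under 0.05. No point reaches the dotted lines; the largest are Adcy3 (0.78), Tulp3 (−0.74) and Adcy6 (0.69) between ciliated and non-ciliated controls.

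Ciliated controls were compared with non-ciliated controls, the same clones that served the mutant comparisons, to see what changed with the state. No gene of the 9 reached the fold limit: 0 were called higher (background 6.29% of 11856 genes) and 0 lower (3.99%). DESeq2 called 0 as well, while 6 of 9 had an unadjusted p under 0.05 with edgeR and 7 with DESeq2, against 64.4% and 65.2% of all genes. By the adjusted p alone 3 were higher (background 31.2%) and 2 lower (29.7%). Adcy6 rose from 148 ± 18.1 to 241 ± 38.0 CPM (SD, n = 4 clones each), a log2 fold change of 0.69 (SE 0.07, edgeR adjusted p = 1.76e-09). Unc119b rose from 162 ± 3.25 to 195 ± 18.6 CPM (n = 4 clones each), a log2 fold change of 0.26 (SE 0.04, edgeR adjusted p = 6.61e-06). For these 2 genes all 4 ciliated clones lay above all 4 non-ciliated ones, as in 10.6% of genes, with an exact permutation p of 0.0286, the smallest possible for 4 against 4, and of 0.124 after adjustment over all tested genes. None of the 9 lay wholly below, as 12.5% of genes did.

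Adcy3 rose as well, by 0.78 on the log2 scale (SE 0.17, edgeR adjusted p = 0.000258). Tulp3 fell by 0.74 on the log2 scale (SE 0.15, edgeR adjusted p = 9.0e-05) and Pde6d by 0.28 (SE 0.08, edgeR adjusted p = 0.00371). Clones of the 2 states overlapped for these 3 genes, through A4 for Adcy3 and through AB for Tulp3, and their exact permutation p-values over clones were 0.0857, 0.114 and 0.114. Rpgr (0.17, SE 0.16), Gpr161 (0.22, SE 0.11), Inpp5e (0.18, SE 0.09) and Arl3 (−0.04, SE 0.13) did not pass the adjusted p. Without G7 Rpgr (0.43) and Gpr161 (0.34) did (edgeR adjusted p = 0.000308 and 0.004), as did Gpr161 without Co3 or with DESeq2 (0.0289 and 0.0442) and Inpp5e without D8, Co2 or A4 (0.00737 to 0.0444). With the libraries of a clone summed, Adcy6 alone kept an edgeR adjusted p under 0.05 (0.0233), and with the clone as a block in limma's voomLmFit Adcy6 (0.00232) and Tulp3 (0.0129) did. Pde6d depended on AB, without which it fell by 0.14 (edgeR adjusted p = 0.0544). The 5 proliferation genes summed to 1614 to 2339 CPM in ciliated and 1914 to 2315 CPM in non-ciliated controls; their part in these differences was not tested.

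How far control clones of 1 state differ sets the scale for the mutant comparisons. Among the 4 ciliated controls 2 of the 9 genes, Rpgr and Adcy3, were called, against 32.9% of 12325 genes. Rpgr spanned 1.63 log2 units between the highest and the lowest clone and Adcy3 1.45 (edgeR adjusted p = 4.77e-08 and 2.62e-05, F test over 4 clones). By the adjusted p alone 7 differed, all but Arl3 and Pde6d, against 85.4% of genes. Those genes differed as well without replicate number 4, with spans of 0.76 and 0.42 in place of 0.36 and 0.26 (edgeR adjusted p = 0.00849 and 0.00426), and without the libraries far from their clone (0.00141 and 0.000207). Without G7 Pde6d passed (0.0241) and Gpr161 did not (0.192), and without D8 Adcy6 did not (0.237). Among the 4 non-ciliated controls only Tulp3 was called, with 1.29 log2 units (edgeR adjusted p = 3.33e-09), against 25.6% of 12327 genes, and 7 differed by the adjusted p alone, against 80.5%. The 2 that did not were Unc119b and Gpr161. Gpr161 differed without AB (edgeR adjusted p = 8.79e-05), without replicate number 1 (5.58e-05) and without the libraries far from their clone (3.21e-05), its library 1 of AB being at 8.43 CPM. Without Co2 Arl3, Inpp5e, Adcy3 and Adcy6 no longer differed (0.253 to 0.809); Inpp5e also missed the threshold without Co1, Co3 or replicate number 2, 3 or 4 (0.0646 to 0.135), and Adcy3 without number 3 or 4 (0.131 and 0.315). The median span of the 9 genes was 0.60 log2 units in ciliated and 0.40 in non-ciliated controls, against 0.71 and 0.61 over all genes.

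Single clones decided these calls. Without G7 the span of Rpgr was 0.48 log2 units. That of Adcy3 was 0.84 without H12 and 0.66 without A4. Without AB the span of Tulp3 was 0.18. Beside G7 stand its 146 CPM of summed epithelial markers; their part in the low Rpgr was not tested. Co2, with 198 CPM of the same markers, had the lowest Rpgr of the non-ciliated clones, at 8.58 CPM, beside 8.82 in Co1, 11.05 in AB and 11.00 in Co3.

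The steps of Tulp3 ran with those of the chromosome it lies on. The median of 570 other genes of chromosome 6, relative to the clones of the same state, was −0.38 log2 units in AB, −0.33 in the non-ciliated Wdr60 mutant, −0.34 in the ciliated Wdr60 mutant and −0.31 in H12. In the other 9 clones it was 0.08 to 0.26. Tulp3 itself was −0.74, −0.71, −0.85 and −0.37 in the former 4 and 0.01 to 0.58 in the latter 9, so both sets of clones are apart in both measures. Over the 13 clones Tulp3 and the chromosome median had a Pearson r of 0.945, and the gene most like Tulp3 of all was Atp6v1e1 (r = 0.98), a proton pump subunit 7.53 Mb away on the same chromosome.

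The differences between groups did not all follow. Tulp3 differed by −0.685 log2 units between the states over clone means, beside a chromosome 6 median of 0.04. In non-ciliated mutants it differed by −0.52 beside −0.17, and in ciliated mutants by −0.25 beside −0.06.

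Unc119b stood in a similar relation to chromosome 5, with an r of 0.719 over 13 clones. Its clone means differed between ciliated mutants and controls by 0.24 log2 units and the median of 793 other genes of that chromosome by 0.14. In non-ciliated cells these were 0.23 and 0.18. The difference of Unc119b minus that of the chromosome median was 0.10 log2 units in ciliated and 0.06 in non-ciliated cells. What part the chromosome has in it was not tested. Between the states its 0.26 stood beside a chromosome median of −0.04.

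Relative to the clones of the same state, Inpp5e and Adcy6 were both lowest in the ciliated mutant Wdr34 clone 3, where the median gene of chromosome 2 was −0.31 and that of chromosome 15 −0.30 log2 units; the next lowest clones were at −0.03 and −0.02. Inpp5e lay at −0.56 and Adcy6 at −0.63 in that clone. Both were second lowest in the ciliated control D8, at −0.27 and −0.31, where the chromosome medians were 0.04 and 0.04. The r between Inpp5e and Adcy6, 0.88 over 13 clones, was the highest between any pair of the 9 genes. Adcy6 between the states differed by 0.69 log2 units over clone means, with a chromosome 15 median of 0.01.

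On chromosome 1 the median was −0.47 in Co2 and −0.40 in G7 and −0.004 to 0.13 in the other 11 clones. Gpr161 was −0.20 and −0.48 in these clones, and −0.225 in AB, where the chromosome median was 0.10. Pde6d, on the same chromosome, was −0.07 and −0.18 there and lower still in Co1 (−0.23) and Co3 (−0.26), which had no low median. Rpgr at −1.06 in G7 stood beside an X chromosome median of −0.05. In H12, where Rpgr was highest at 0.53, that median was also highest, at 0.18. Over the 13 clones Rpgr had an r of 0.362 with it. Adcy3 stood beside chromosome 12 medians that spanned 0.096 log2 units in all. These are descriptions over 13 clone cultures that are not all independent clones; the part of the chromosome medians in the results was not tested.

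**Figure D5:**
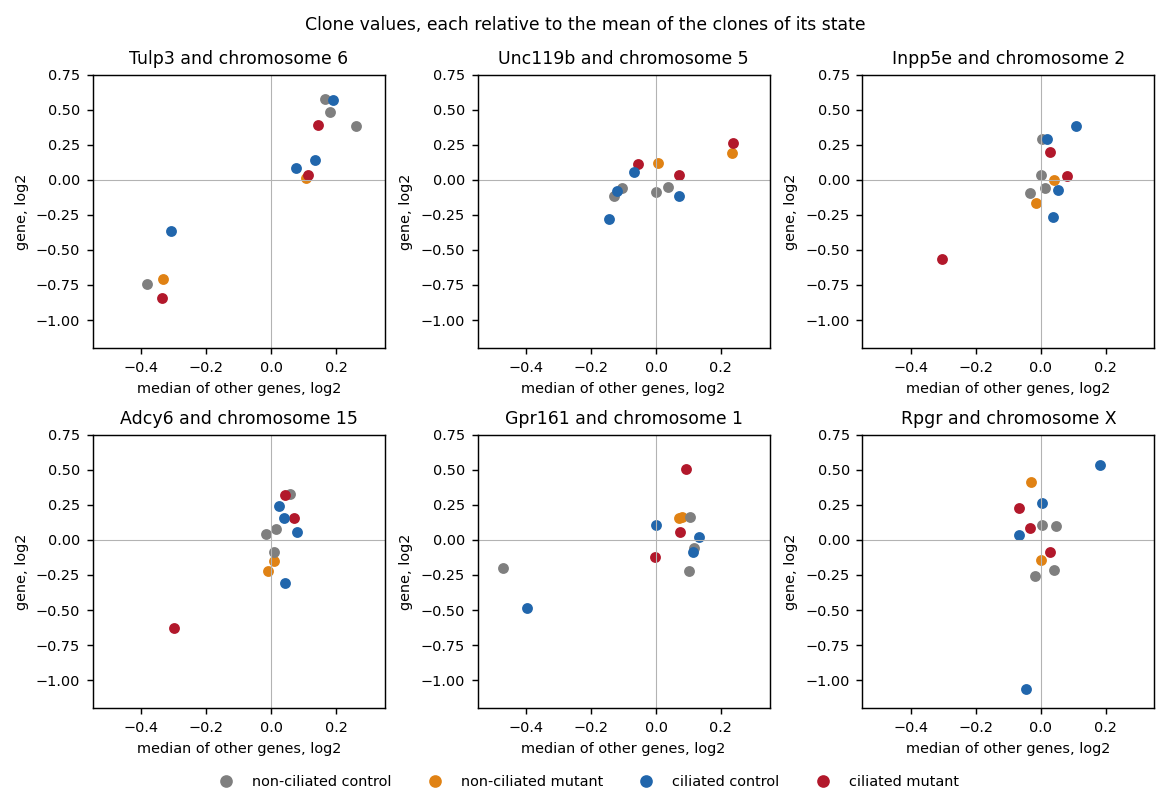
Each of 6 genes against the median of the other genes on its chromosome, in log2 units relative to the mean of the clones of the same state, with 1 point per clone. For Tulp3 the 4 clones with a chromosome 6 median below −0.3 are the 4 lowest in Tulp3. Rpgr in G7 is at −1.06 with an X chromosome median of −0.05, and in H12 at 0.53 with a median of 0.18.

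The wider pathway was read from a list of 72 other genes, of which 55 or 56 passed the filter on low counts. In ciliated mutants 2 were called higher and 0 lower, against 0.418% and 0.226% of all genes. These were Adcy1, a calcium-activated cyclase (log2 fold change 1.82, SE 0.47, edgeR adjusted p = 0.0311), and Gper1, a receptor for oestrogen (1.21, SE 0.30, edgeR adjusted p = 0.0217). In non-ciliated mutants 0 were called higher and 2 lower, against 0.491% and 2.57% of all genes. The latter were Cys1, the myristoylated cystin that UNC119B carries into cilia (−2.58, SE 0.49, edgeR adjusted p = 0.00131), and Arrb1, a beta-arrestin (−1.26, SE 0.38, edgeR adjusted p = 0.0276). Their exact permutation p-values over clones were 0.0571, 0.229, 0.133 and 0.467. Cys1 was the 1 gene of the list whose mutant effect was called different between the states (2.03, SE 0.57, edgeR adjusted p = 0.0483; background 1.12%), with mutant values of −0.56 in ciliated and −2.58 in non-ciliated cells. That call was lost at the level of clones, with an edgeR adjusted p of 1 when the libraries of a clone were summed and the same with the clone as a block in limma's voomLmFit (unadjusted p = 0.111 and 0.0668). Of the 4 calls in mutants, none held with summed libraries (edgeR adjusted p = 0.976 to 1), and only Adcy1 held with the clone block, at 2.89 (voomLmFit adjusted p = 0.028).

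In ciliated against non-ciliated controls 4 of 56 were called higher and 1 lower, against 6.29% and 3.99% of all genes. Pde4c, a cAMP phosphodiesterase found in renal cilia, was higher by 2.17 (SE 0.25), Gper1 by 1.51 (SE 0.25) and Cys1 by 1.30 (SE 0.41), while Grk5, a receptor kinase, fell by 1.93 on the log2 scale (SE 0.22). All ciliated control clones lay above the non-ciliated ones for Pde4c, as in 10.6% of genes, and below them for Grk5, as in 12.5%. Both had an exact permutation p of 0.0286, the smallest possible for 4 against 4 clones. Pde4c and Grk5 alone of the 5 held with summed libraries (edgeR adjusted p = 0.0246 and 0.0121). With the clone as a block in limma's voomLmFit all 5 held but Gper1 (voomLmFit adjusted p = 0.0775), with Cys1 at 0.0305. Among control clones 10 of these 56 were called in ciliated and 8 in non-ciliated cells, against 32.9% and 25.6% of all genes, with Adcy1 spanning 5.72 and 5.83 log2 units, Cys1 3.04 and 2.68, and Arrb1 1.96 and 2.44. The carriers and the Arl2 and Arl3 cycle, 12 genes all tested, held 1 call among controls of either state, Cys1, and the vesicle delivery genes, 11 tested, held 0, beside the same shares of all genes.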

How the data were processed

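RNA of 13 IMCD3 cultures, each a named clone in 1 state and called a clone here, was measured in 52 libraries, 4 technical replicates each, and groups were taken from the sample labels. The authors aligned reads to GRCm38/mm10 with Rsubread in R 3.4.4, counted them per gene symbol with featureCounts and used DESeq2 1.18.1; the deposited values are raw counts. Strand and multi-mapping settings are not given in the sources used here. The genes, the pathway list and the tests were chosen with earlier results of these data known. Another gene chosen with them is not reported here.

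Here, counts were filtered (filterByExpr), scaled by TMM and tested with edgeR 4.0.16 (glmQLFit, glmQLFTest, 2-sided) in R 4.3.3, with adjustment over all tested genes; SE is the size of the log2 fold change over the square root of F. Alternatives used DESeq2 1.42.0 (a likelihood ratio test among clones), limma 3.58.1, other scalings and filters, and left-out clones or libraries. CPM were TMM-scaled over all libraries (prior count 2 for log2). All 9 genes, and up to 3 called genes of the pathway list per direction and comparison, are named. Fits were tested on simulated data. Library totals had a median of 17414011.5 counts. Positions and promoters came from RefSeq GRCm38.p6, exon lengths from GENCODE vM21. Replicate pairs of a clone had a chi-square per degree of freedom of 2.0 to 106.7 (78 pairs, 0 identical).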

Additional observations from a re-analysis of the deposited data

Results flagged for a closer look

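One gene stood apart among the 4 control clones of a state, in 18 groups examined: Adcy3 in the non-ciliated control Co2, at 2.15 CPM, where the gap to the next clone, as a share of the whole range, was over Dixon's 95% critical value. Chance gives such a flag in about 1 group of 20.

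Among the 4 libraries of a clone, 12 of 117 groups held a library that stood apart by the same measure, and 8 of these fell in libraries already named as far from the rest of their clone. Library 1 of AB was highest for Arl3 (85.1 CPM), Pde6d (59.0) and Adcy3 (1.95) and lowest for Gpr161 (8.43). Library 1 of the non-ciliated Wdr60 clone was lowest for Unc119b (140.0 CPM) and Adcy6 (94.6). Library 4 of G7 was highest for Pde6d (37.2 CPM) and Inpp5e (57.4). The others were Pde6d in library 3 of Wdr34 clone 3 (34.3 CPM, lowest), Gpr161 in library 4 of Wdr34 clone 1 (28.3, highest), and Adcy6 in library 1 of H12 (231.0, lowest) and library 3 of A4 (260.0, highest). For none of the 9 genes was the mutant effect called different between the states.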

How the results depend on the processing

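The count of genes called at both limits stayed at 0 in both mutant comparisons, between the states and for the mutant effect under DESeq2, RLE size factors, either filter, summed clones, the clone block, the replicate block, each left-out clone or replicate number, and, chosen after seeing the data, without the libraries that stand apart or without G7 and Co2. An adjusted p alone gave 1, 2 and 5 genes in ciliated mutants, non-ciliated mutants and controls between states, and 7 and 7 among ciliated and non-ciliated controls. Leaving out a clone or replicate number gave 1 to 2 genes among ciliated controls (1 without G7 and Co2) and 0 to 1 among non-ciliated controls. Replicate numbers did not pair the libraries (median r −0.004 over 312 pairs; 13 of 52 libraries correlated best with their own number), and the replicate block left 0, 0, 0, 0, 2 and 1 genes called.

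Over all genes, 77 were called in ciliated mutants, 129 with DESeq2, 293 with no filter, 23 with at least 10 counts in every library, 7 with the clone block and 0 with clones summed; in non-ciliated mutants these were 368, 415, 565, 151, 9 and 0, and for the mutant effect 149, 227, 162, 49, 0 and 0. Between the states they were 1219, 1247, 2522, 832, 930 and 660. In ciliated mutants 156 to 173 were called without 1 mutant clone, 215 without H12, 343 without G7, 183 without the libraries that stand apart and 24 to 30 without a replicate number. In non-ciliated mutants 161 to 174 were called without replicate number 2, 3 or 4. The mutant effect had 585 without G7, 277 without the ciliated Wdr60 clone, 247 without AB, 232 without Wdr34 clone 1, 98 without A4, 63 without Wdr34 clone 3, 55 without Co2, 7 to 62 without a replicate number, 378 without the libraries that stand apart and 319 without G7 and Co2. Among ciliated controls 2087 were called without G7 (4058 with it), and among non-ciliated controls 1688 without Co2 (3159 with it). The background shares move with these counts.

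Of 774 fold changes under alternatives, without spans and the adjusted p alone, 60 changed sign, and 37 of these were among 234 for the mutant effect. Leaving out clones or replicate numbers moved ciliated mutant fold changes across 0 for Rpgr (−0.21 to 0.24), Arl3 (−0.0126 to 0.21), Adcy6 (−0.23 to 0.17), Tulp3 (−0.50 to 0.0603) and Adcy3 (−0.12 to 0.40). In non-ciliated mutants it did so for Rpgr (−0.0775 to 0.49) and Adcy3 (−0.32 to 0.0404), and between states for Arl3 (−0.20 to 0.13) and Rpgr (−0.0117 to 0.43). For the mutant effect between states it did so for Pde6d (−0.14 to 0.10), Arl3 (−0.29 to 0.0219), Unc119b (−0.0796 to 0.05), Inpp5e (−0.21 to 0.14), Rpgr (−0.45 to 0.12) and Gpr161 (−0.15 to 0.17).

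Without the libraries that stand apart, which removes the whole ciliated Wdr60 clone, ciliated mutant values turned for Rpgr (−0.021), Tulp3 (0.0895) and Adcy3 (−0.16), and mutant effects for Gpr161 (−0.14) and Adcy3 (−0.049). Without G7 and Co2, values turned for Rpgr (−0.21) in ciliated mutants, Arl3 (0.17) between states, and Pde6d (−0.0111) and Gpr161 (−0.00912) in the mutant effect. With the clone block they turned for Arl3 (0.0263) and Rpgr (−0.0393) between states, and Unc119b (0.00417), Pde6d (−0.0592) and Rpgr (0.0114) in the mutant effect. The mutant effect also turned for Pde6d under DESeq2 (−0.00131), RLE (−0.000239) and summed clones (−0.0283), and for Unc119b (0.00681) with at least 10 counts in every library. The cause was not tested.

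With clone means of 1.32 to 4.26 CPM, Adcy3 rests on 11 to 98 counts per library, which limits its precision.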
